A study of Homo sapiens with 6 samples.

Results

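The transcripts of the proteasome were examined in bulk RNA-seq of H9 cells, an established human T-cell lymphoma line of the cutaneous type. The cells, of the genotype that the labels give as WT, were treated with vehicle (DMSO) or for 4 h with AZD4573, a selective inhibitor of CDK9, and each group held 3 libraries. Genes were taken by name, as rows whose symbol begins with PSM, a letter from A to G and a number. Of 98 such names among 61541 genes, 49 were left out, namely 42 pseudogenes, 6 names with a hyphen, which are antisense or divergent transcripts, and PSME3IP1. The 49 names kept hold 48 genes of the proteasome and PSMC3IP, which encodes a recombination factor that shares only part of its name with them. A single line treated in culture gives the response of that line, and nothing in the sources used here says whether replicates were separate cultures, so that p values measure the spread between these libraries. Of 11 T-cell markers, 10 were above 1 CPM (CPM are counts relative to the library total after TMM scaling, edgeR's normalization by trimmed means) in at least 1 library, and CD2 was not, with at most 0.166 CPM. Among markers of other cell types, EPCAM (132 to 167 CPM), CD79A (55 to 98.4 CPM), CDH1, CD79B and MPO were also above 1 CPM, whereas MS4A1, PAX5, KRT5, KRT14, CD14, LYZ and CSF1R were not. The summed CPM of the 11 T-cell markers were 1299 to 1316 with DMSO and 1579 to 1693 with AZD4573, those of the 5 B-cell markers 61 to 67 and 92.5 to 103, those of the 4 epithelial markers 153 to 172 and 135 to 140, those of the 4 myeloid markers 0.051 to 0.191 and 1.02 to 1.93, and the part of these shifts in the results was not tested.

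The proteasome degrades proteins that carry chains of ubiquitin. Its 20S core is a barrel of outer alpha rings and inner beta rings, in which PSMB5, PSMB6 and PSMB7 carry the chymotrypsin-like, caspase-like and trypsin-like sites. In lymphoid cells and after interferon, PSMB8, PSMB9 and PSMB10 take the places of PSMB5, PSMB6 and PSMB7 in newly built cores. Such cores are called immunoproteasomes and produce peptides for MHC class I. The 19S cap, with a base of ATPases and a lid, binds ubiquitin, unfolds the substrate and feeds it into the core, and PA28 and PA200 are alternative caps. PSMB5 is the main target of bortezomib, a drug used in myeloma and lymphoma. CDK9 releases paused RNA polymerase II into elongation, so that transcripts of short life tend to be lost first when it is inhibited.

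Windows of 300 bases around start sites, most of them before the start, are shown for 5 genes. PSME1 and PSMC6 had the highest and the lowest log2 fold change, PSME2 encodes the partner of PSME1, and PSMB5 and PSMB8 are a constitutive catalytic subunit and its immunoproteasome counterpart. The genes shown were chosen after their values were seen. They are RefSeq sequences of GRCh38.p14 on the strand of the gene, at chr14:24135944-24136243 (plus strand) for PSME1, chr14:24146561-24146860 (minus strand) for PSME2, chr6:32843998-32844297 (minus strand) for PSMB8, chr14:23034851-23035150 (minus strand) for PSMB5 and chr14:52706950-52707249 (plus strand) for PSMC6. For PSMB5 and PSMB8, each with windows at more than one start, the window at the start of the MANE Select transcript is shown. Capitals mark matches, on either strand, of the motifs CCAAT (bound by NF-Y), GGGCGG (GC box), TGACNNNGC (core of the antioxidant response element), CCGGAAG (ETS factors) and the interferon-stimulated response element (GAAA, any 2 bases, GAAA), where adjoining or overlapping matches run together.
PSME1: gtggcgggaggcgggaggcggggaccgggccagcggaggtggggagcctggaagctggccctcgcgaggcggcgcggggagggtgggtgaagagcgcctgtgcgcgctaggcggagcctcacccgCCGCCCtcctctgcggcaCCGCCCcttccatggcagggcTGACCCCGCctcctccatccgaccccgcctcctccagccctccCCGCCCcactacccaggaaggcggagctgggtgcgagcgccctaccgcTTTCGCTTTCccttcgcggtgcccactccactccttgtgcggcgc
PSME2: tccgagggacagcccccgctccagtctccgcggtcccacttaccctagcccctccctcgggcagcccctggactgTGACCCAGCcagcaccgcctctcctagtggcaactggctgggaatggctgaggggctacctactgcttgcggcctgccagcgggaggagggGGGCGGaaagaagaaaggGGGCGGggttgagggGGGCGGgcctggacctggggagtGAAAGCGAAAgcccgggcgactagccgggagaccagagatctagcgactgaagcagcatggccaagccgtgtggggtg
PSMB8: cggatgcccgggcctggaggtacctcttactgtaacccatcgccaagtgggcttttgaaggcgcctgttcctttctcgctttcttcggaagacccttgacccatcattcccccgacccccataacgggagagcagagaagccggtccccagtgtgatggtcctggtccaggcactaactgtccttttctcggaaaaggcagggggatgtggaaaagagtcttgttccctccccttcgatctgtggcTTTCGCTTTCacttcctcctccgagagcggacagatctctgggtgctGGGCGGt
PSMB5: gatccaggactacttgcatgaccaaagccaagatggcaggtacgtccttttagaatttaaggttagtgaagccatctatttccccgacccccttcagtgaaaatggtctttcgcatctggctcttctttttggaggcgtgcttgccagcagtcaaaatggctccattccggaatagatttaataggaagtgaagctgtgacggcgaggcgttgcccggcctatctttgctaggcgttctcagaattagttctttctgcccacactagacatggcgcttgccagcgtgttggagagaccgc
PSMC6: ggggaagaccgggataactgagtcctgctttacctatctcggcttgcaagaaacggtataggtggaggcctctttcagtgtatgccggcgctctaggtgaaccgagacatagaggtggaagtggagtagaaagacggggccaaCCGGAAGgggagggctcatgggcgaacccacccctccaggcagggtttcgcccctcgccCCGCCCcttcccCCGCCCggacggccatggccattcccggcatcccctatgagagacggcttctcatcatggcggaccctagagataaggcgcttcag
The interferon-stimulated response element stands in the windows of PSME1, PSME2 and PSMB8. It has no match in those of PSMB9, PSMD13, PSMA1, PSMD5 and PSMD12, which rose more than PSME2 and PSMB8, and no window was used for PSMA7 and PSMB1. The window of PSMB5 that is shown holds no match of any of the 5 motifs. Its other window, at a start farther upstream, holds 1 match of CCAAT, and PSMB5 is counted with that motif below. These are matches of letters and no measurement of binding.

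Over the whole complex, transcripts moved in both directions and mostly by little. Of the 48 proteasome genes, 46 passed the filter on low counts, and their median log2 fold change (AZD4573 against DMSO) was 0.11, beside 0.03 for all 17678 genes tested. In the quasi-likelihood test of edgeR, with p adjusted over all genes tested by the method of Benjamini and Hochberg and a threshold of 0.05, 13 fell and 23 rose, and 10 did not pass. Among all genes tested, 37.4% were called lower and 37.3% higher. At a fold change of at least 1.5 as well, 7 proteasome genes were lower and 1 was higher, where the shares of all genes were 23.7% and 22.7%. Those 7 were PSMC6, PSMG2, PSMG3, PSMG1, PSMB5, PSME4 and PSME3, and the 1 was PSME1. Each AZD4573 library lay below each DMSO library for 14 genes and above for 22, beside 38.7% and 39% of all genes. In bulk RNA, fewer cells of a kind and less RNA per cell cannot be told apart, and a transcript that stays level while others are lost appears as higher.

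The direction of every rise of a proteasome gene, the largest included, depended on the scaling. The mitochondrial genome encodes 13 mRNAs that RNA polymerase II does not make, and they took 3.04% to 3.22% of the counts with DMSO and 4.67% to 4.98% with AZD4573. A scaling to these mRNAs takes their amount per cell as unchanged by AZD4573, which was not tested. With libraries scaled to those mRNAs in place of TMM, the median of all genes moved from 0.03 to -0.71, 45 proteasome genes were called lower and 0 higher by edgeR, beside 67.2% and 12.1% of all genes, and the median of the proteasome genes was -0.63. Relative to the median of all genes, that of the proteasome genes was 0.09 higher under TMM and 0.08 higher under the mitochondrial scaling. Under both scalings 28 of the 46 lay above the median of all genes and 18 below it. Thus "higher" and "lower" hereafter are relative to the other transcripts of a library. Of the calls under TMM, 12 of the lower ones held in each of the 14 alternatives that refit the data at the threshold on p alone, and 13 of the higher ones in the 13 other than the mitochondrial scaling. A fold threshold of 2 is not among these. These 13 were PSMA1, PSMA6, PSMA7, PSMB1, PSMB2, PSMB4, PSMB8, PSMB9, PSMD5, PSMD12, PSMD13, PSME1 and PSME2. The other 10 higher calls, those of PSMA2, PSMB3, PSMB6, PSMB10, PSMC4, PSMD2, PSMD3, PSMD4, PSMD7 and PSMD10, were all lost when libraries were scaled by their size alone, with log2 fold changes of 0.00 to 0.10. DMSO replicate 1 held the highest share of proteasome counts, 0.696% of the library beside 0.66% to 0.677% in the other 5. Without it 25 proteasome genes were higher, against 15 without DMSO replicate 2 or without DMSO replicate 3, and the lower genes numbered 13 to 14 in each case. The shares of all genes called in these refits are not given here, so it cannot be told whether they moved alike.

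**Figure D1:**
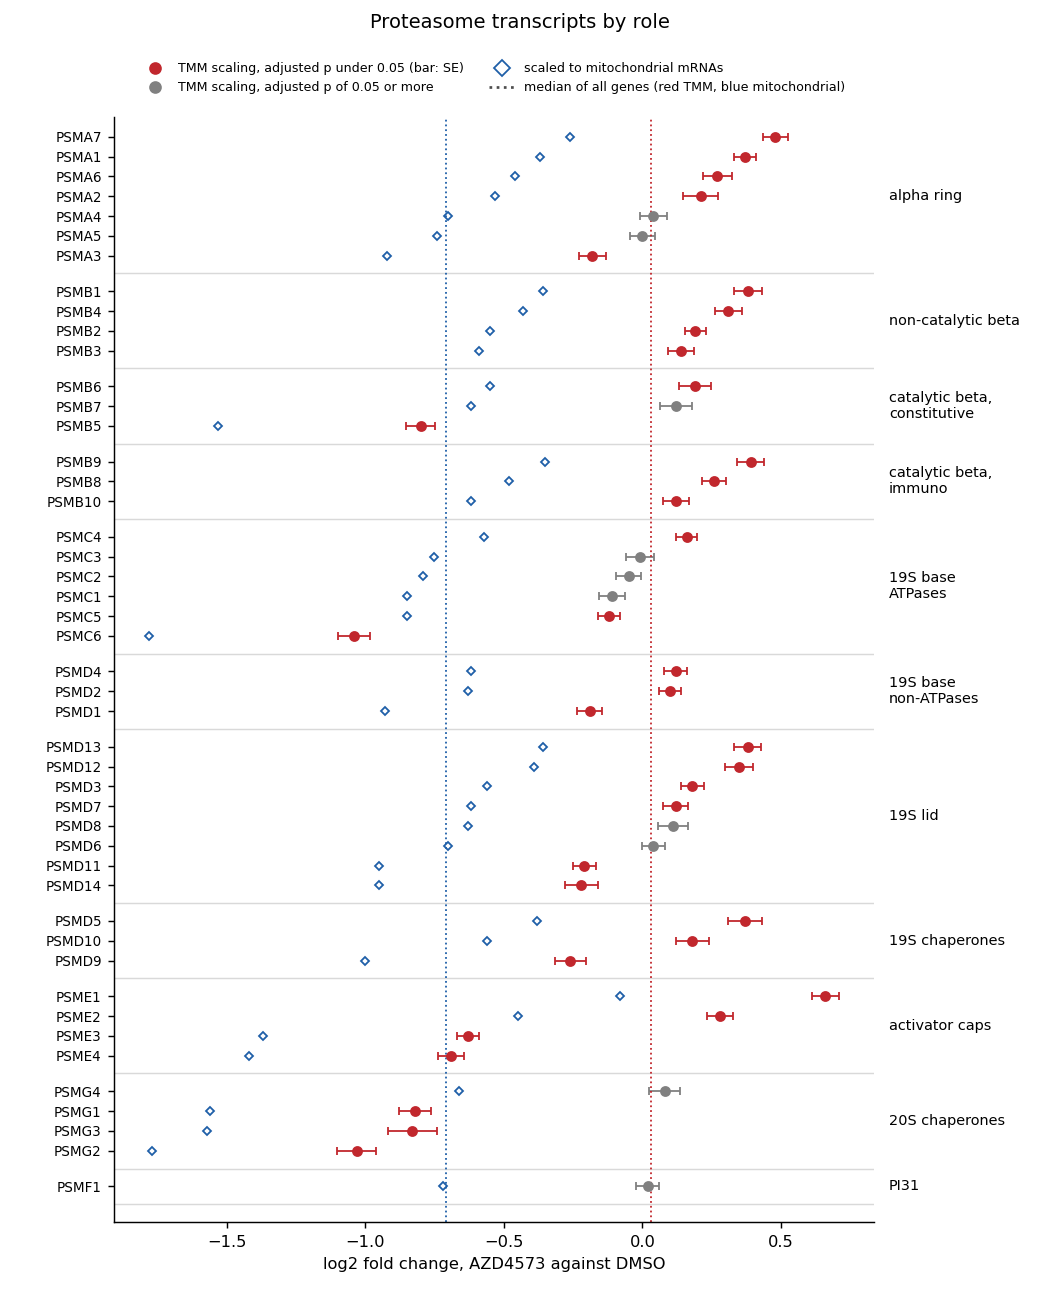
Log2 fold change (x axis) of the 46 proteasome transcripts tested, in rows grouped by role. Filled circles with bars give the value and SE under TMM scaling, red where the adjusted p was under 0.05, open diamonds the value under mitochondrial scaling, and dotted lines the medians of all genes (0.03 and -0.71). PSMC6, PSMG2, PSMG3, PSMG1, PSMB5, PSME4 and PSME3 stand to the left of the rest under both scalings, and PSME1 stands farthest to the right.

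Levels per length, as CPM per kilobase of the MANE Select mRNA, differed widely between subunits that occur in equal number in the core. With DMSO the 14 constitutive core subunits ran from 28.4 for PSMA5 to 471 for PSMB1, a 16.6-fold range with a median of 107. The lowest, PSMA5, PSMA4 and PSMB2, have the longest MANE mRNAs of the core, at 3815, 4378 and 4426 bases. The next longest is PSMA2, at 1434 bases. Without division by length they had 108, 178 and 180 CPM with DMSO, within a core range of 59.7 (PSMA3) to 420 (PSMB1). The levels per length thus depend on the transcript chosen. With AZD4573 the range was from 28.4 for PSMA5 to 615 for PSMB1, or 21.7-fold. PSMA7 was next to PSMB1 in both groups, at 312 and 435 CPM per kb, and PSMB5 moved from rank 9 to rank 11 of 14. The 17 subunits of the 19S cap were more even, from 23.9 for PSMD12 to 159 for PSMC5 with DMSO, a 6.68-fold range. Here too the lengths differ, with 4356 bases for PSMD12 and 1331 for PSMC5. PSMC6 was already near the foot of that list with DMSO, at rank 16, and was the lowest with AZD4573, at 13.9 CPM per kb. The summed CPM of the 14 core genes were 2432, 2209 and 2217 with DMSO and 2666, 2637 and 2761 with AZD4573, which did not overlap, and those of the 17 cap genes were 2799 ± 89.9 and 2881 ± 30.7 (SD, n = 3), which did.

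**Figure D2:**
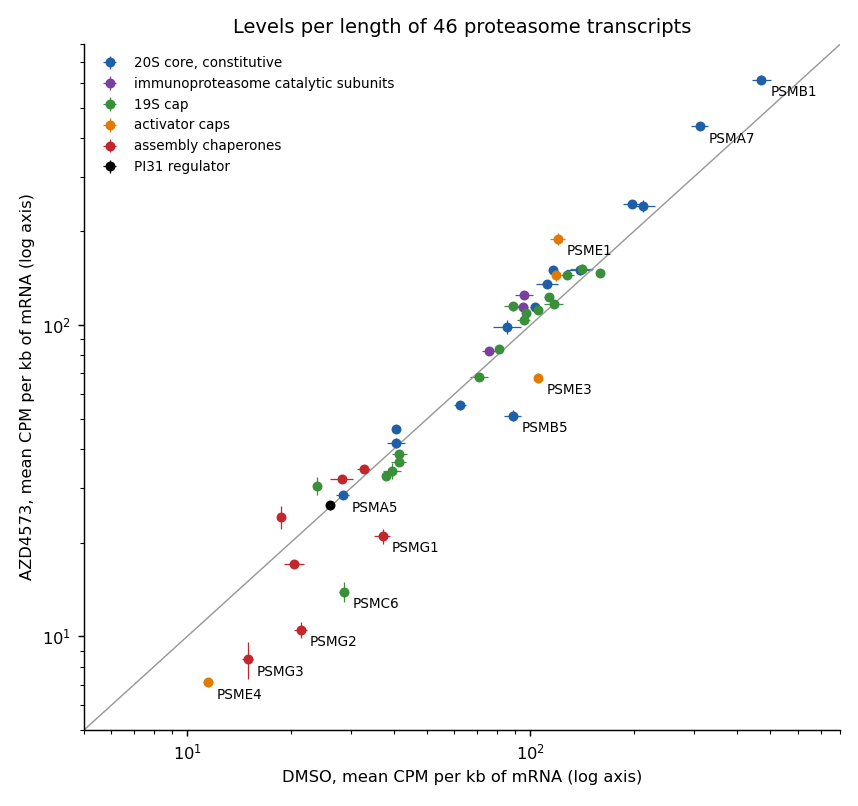
Mean CPM per kilobase of mRNA with DMSO (x axis) and AZD4573 (y axis), both on log axes, for the 46 transcripts tested, coloured by complex, with SD over 3 libraries as bars and the line of equal levels. PSMB5, PSMC6, PSMG1, PSMG2, PSMG3, PSME3 and PSME4 lie below the line, and PSMB1 and PSMA7 are the highest.

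The alpha ring, which gates entry into the core, was measured through PSMA1 to PSMA7. Of these 7 genes, 4 rose, 1 fell and 2 did not pass the test, with a median log2 fold change of 0.21. The called shares were 57.1% higher and 14.3% lower, beside 37.3% and 37.4% of all genes. SE is the standard error of a log2 fold change. PSMA7 had 320, 287 and 294 CPM with DMSO and 410, 418 and 429 CPM with AZD4573. Its groups lay far apart, and its log2 fold change of 0.48 (SE 0.0467, adjusted p = 5.7e-07, edgeR) was the largest rise in the core. PSMA3 was the only lower gene of the ring, with 62.1, 59.8 and 57.2 CPM with DMSO and 54.5, 52.5 and 51.2 CPM with AZD4573. Its log2 fold change was -0.18 (SE 0.0504, adjusted p = 0.00553, edgeR), a small step that left the groups apart. PSMA1 (0.37), PSMA6 (0.27) and PSMA2 (0.21) rose, while PSMA4 (0.04) and PSMA5 (0.00) did not pass. The groups of PSMA2 overlapped, and its rise did not pass without DMSO replicate 2 (0.15) or 3 (0.16) or without AZD4573 replicate 3 (0.16). A readthrough or overlapping gene annotated on the same strand covers 100% of the exon bases of PSMA2, 81.4% of those of PSMA6 and 67% of those of PSMA1, and RSEM divided reads between them; the other gene reached at most 13.7% of the CPM of PSMA2, 3.78% of that of PSMA6 and 0.391% of that of PSMA1. PSMA8, the alpha subunit of the testis, had 0 counts in 5 libraries and 3 in AZD4573 replicate 3, and was not tested.

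The non-catalytic beta subunits form the rest of the inner ring, and all 4 rose, beside 37.3% of all genes called higher. PSMB1 had 451, 404 and 405 CPM with DMSO and 541, 534 and 569 CPM with AZD4573, and its log2 fold change was 0.38 (SE 0.0499, adjusted p = 1.0e-05, edgeR). PSMB4 (0.31), PSMB2 (0.19) and PSMB3 (0.14) followed, each with groups that did not overlap. The rise of PSMB3 did not pass when scaled by library size alone (0.04), without DMSO replicate 2 (0.11) or 3 (0.13), or without AZD4573 replicate 3 (0.12).

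The constitutive catalytic subunits parted. PSMB5, the main target of bortezomib, had 98.6, 89.3 and 90.4 CPM with DMSO and 55.9, 51.9 and 52.5 CPM with AZD4573. Its level was 1.74-fold lower, a log2 fold change of -0.80 (SE 0.0532, adjusted p = 1.3e-08, edgeR), and the highest AZD4573 library was well below the lowest DMSO library. PSMB5 (ENSG00000100804) lies on the minus strand of chromosome 14 of GRCh38 from 23016543 to 23035230, and none of its 3 exons overlaps another gene in GENCODE release 44. PSMB6 had 192, 166 and 168 CPM with DMSO and 201, 190 and 207 CPM with AZD4573. It rose by the test, with a log2 fold change of 0.19 (SE 0.0574, adjusted p = 0.00937, edgeR), although DMSO replicate 1 lay above AZD4573 replicate 2. PSMB7 had 150, 131 and 128 CPM with DMSO and 151, 142 and 151 CPM with AZD4573, which overlapped, and its log2 fold change of 0.12 (SE 0.058, adjusted p = 0.0851, edgeR) did not pass. Without DMSO replicate 1 it was 0.18 and passed, and the rise of PSMB6 did not pass without DMSO replicate 2 (0.14) or 3 (0.15) or without AZD4573 replicate 3 (0.15).

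**Figure D3:**
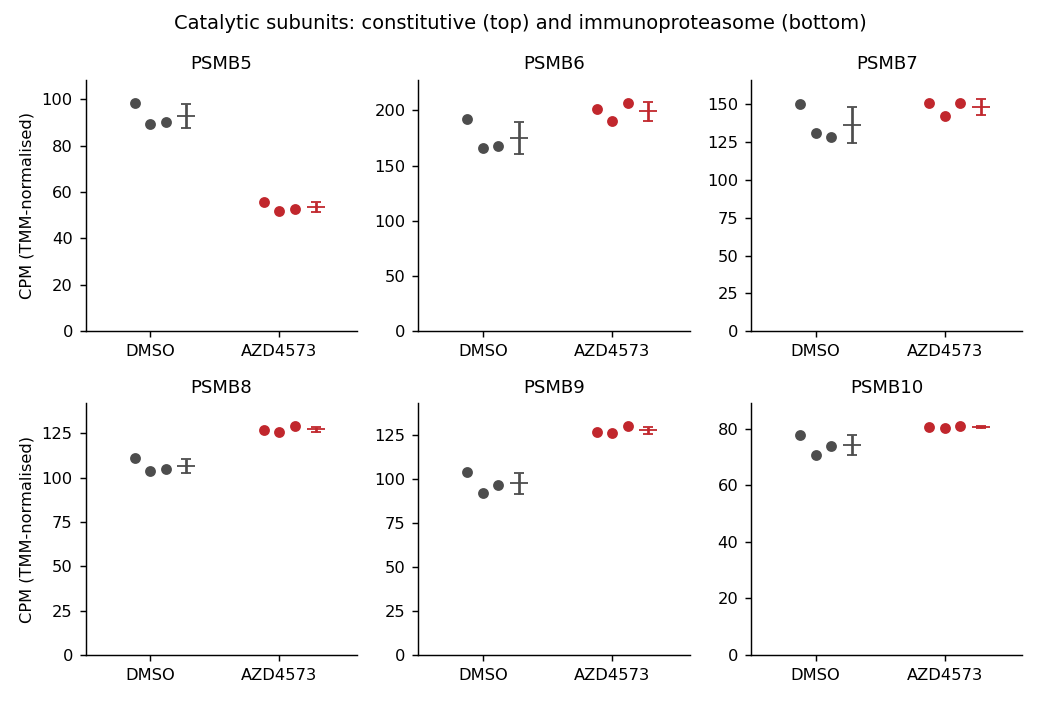
CPM (TMM-normalised, y axis from 0) in each library for the constitutive catalytic subunits in the top row and their immunoproteasome counterparts in the bottom row, with the mean and SD over 3 libraries beside the points. The AZD4573 libraries of PSMB5 lie between 51.9 and 55.9 CPM, below all DMSO libraries, while those of PSMB8, PSMB9 and PSMB10 lie above theirs.

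All 3 immunoproteasome subunits were measured well above the low-count filter with DMSO and rose relative to the other transcripts. Of all genes tested, 37.3% were called higher. PSMB9 had 104, 92.2 and 96.6 CPM with DMSO and 127, 126 and 130 CPM with AZD4573, and its log2 fold change was 0.39 (SE 0.0494, adjusted p = 8.8e-06, edgeR). PSMB8 had 111, 104 and 105 CPM with DMSO and 127, 126 and 129 CPM with AZD4573, and its log2 fold change was 0.26 (SE 0.0433, adjusted p = 1.2e-04, edgeR). Both were higher in each AZD4573 library than in any DMSO library. PSMB10 had 77.8, 70.7 and 74 CPM with DMSO and 80.5, 80.2 and 80.8 CPM with AZD4573, a log2 fold change of 0.12 (SE 0.0473, adjusted p = 0.0363, edgeR), which did not pass with every gene kept and no count minimum (0.08), when scaled by library size alone (0.01), or without any single library other than DMSO replicate 1 (0.07 to 0.12). An overlapping gene on the same strand covers 56.1% of the exon bases of PSMB10 and reached at most 14.8% of its CPM. PSMB11, the subunit of thymic epithelium, had at most 3 counts in any library, with 0 in 3 of them, and was not tested.

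The ratio of each immunoproteasome subunit to the subunit it replaces does not depend on the scaling of the libraries. The log2 ratio of PSMB8 to PSMB5 was 0.18, 0.22 and 0.22 with DMSO and 1.19, 1.28 and 1.3 with AZD4573. The groups did not overlap, and the ratio was 2.07-fold higher with AZD4573, a difference of 1.05 on the log2 scale, with a range of 1.03 to 1.09 over the removal of single libraries. Per length, PSMB8 made up 51.7% ± 0.435 of the pair with DMSO and 68.9% ± 0.917 with AZD4573 (SD, n = 3). The log2 ratio of PSMB9 to PSMB6 was -0.89, -0.85 and -0.80 with DMSO and -0.67, -0.60 and -0.67 with AZD4573. This smaller difference of 0.20 also left the groups apart, with PSMB9 at 31.1% ± 0.657 and 34.1% ± 0.623 of the pair per length (SD, n = 3). The log2 ratio of PSMB10 to PSMB7 was -0.95, -0.89 and -0.79 with DMSO and -0.90, -0.82 and -0.91 with AZD4573, and these groups overlapped around the same mean, with PSMB10 at 35.4% ± 1.25 and 35.4% ± 0.786 (SD, n = 3). In a two-sided exact permutation test over the libraries, the first and second pair each gave p = 0.1, the smallest value that 3 against 3 libraries allow, and the third gave p = 1; adjusted over the 3 pairs, these were 0.15, 0.15 and 1.

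**Figure D4:**
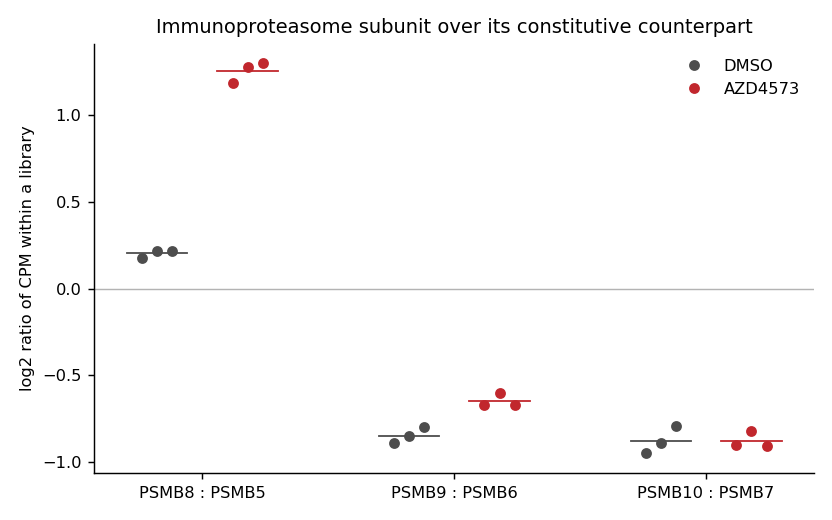
Log2 ratio of the CPM of each immunoproteasome subunit to that of its constitutive counterpart within each library (y axis), for 3 pairs, with DMSO in grey, AZD4573 in red and lines at the group means. For PSMB8 to PSMB5 the means are 0.21 and 1.26, whereas for PSMB10 to PSMB7 both are -0.88.

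In the 19S cap, 5 of 17 genes fell, 7 rose and 5 did not pass, with a median log2 fold change of 0.04. These are 29.4% lower and 41.2% higher, near the 37.4% and 37.3% of all genes. The 6 ATPases form the ring that unfolds the substrate, and they did not move as one. PSMC6 had 62.4, 59.6 and 63.3 CPM with DMSO and 32.3, 28 and 29.6 CPM with AZD4573. It was 2.06-fold lower, and its log2 fold change of -1.04 (SE 0.0591, adjusted p = 2.7e-09, edgeR) was the lowest of all proteasome genes tested. PSMC6 (ENSG00000100519) lies on the plus strand of chromosome 14 from 52707178 to 52728590, with 14 exons that overlap no other gene. PSMC4 was the one ATPase that rose, from 169, 171 and 171 CPM with DMSO to 187, 192 and 193 CPM with AZD4573 (log2 fold change 0.16, SE 0.0385, adjusted p = 0.0016, edgeR), and did not pass when scaled by library size alone (0.06). PSMC5 fell by 0.12 on the log2 scale, and 182 of its 1331 exon bases also belong to FTSJ3 on the other strand, so that unstranded counts may hold reads of both. FTSJ3 reached 48.7% of the CPM of PSMC5, whose fall did not pass among genes with at least 10 counts in every library (-0.08). PSMC1 (-0.11), PSMC2 (-0.05) and PSMC3 (-0.01) did not pass. Of the exon bases of PSMC1, 83.2% also belong to NRDE2 on the other strand, and its pseudogenes together held up to 5.79% of its counts. PSMC1 passed as lower when summed with its pseudogenes (-0.11), without DMSO replicate 2 (-0.14) and without DMSO replicate 3 (-0.13).

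The other subunits of the cap changed by less than 1.5-fold in either direction. In the base, the scaffold PSMD1 fell by 0.19 on the log2 scale, from 145, 135 and 133 CPM with DMSO to 121, 119 and 121 CPM with AZD4573 (SE 0.0446, adjusted p = 0.00161, edgeR). The ubiquitin receptor PSMD4 (0.12) and the scaffold PSMD2 (0.10) rose, and neither passed when scaled by library size alone (0.01 and 0.00), without DMSO replicate 2 (0.11 and 0.10) or 3 (0.09 for both), or without AZD4573 replicate 3 (0.11 and 0.08). In the lid, 2 of 8 genes fell, 4 rose and 2 did not pass, or 25% lower and 50% higher, beside 37.4% and 37.3% of all genes. PSMD14, the deubiquitinase that removes ubiquitin chains before degradation, had 66.3, 60.2 and 59.2 CPM with DMSO and 56.6, 50.4 and 52.8 CPM with AZD4573. It fell by 0.22 on the log2 scale (SE 0.0591, adjusted p = 0.00471, edgeR), with the groups just apart, and PSMD11 fell by 0.21. PSMD13 had 150, 137 and 136 CPM with DMSO and 180, 179 and 191 CPM with AZD4573, a log2 fold change of 0.38 (SE 0.0486, adjusted p = 9.0e-06, edgeR). PSMD12 (0.35), PSMD3 (0.18) and PSMD7 (0.12) also rose, and PSMD8 (0.11) and PSMD6 (0.04) did not pass. PSMD7, which shares 51.6% of its exon bases with a gene on the other strand that reached at most 2.73% of its CPM, did not pass without DMSO replicate 2 (0.10) or 3 (0.08) or without AZD4573 replicate 2 (0.10), and PSMD8 passed without DMSO replicate 1 (0.16).

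The alternative caps split by kind. PA28 alpha and beta, encoded by PSME1 and PSME2, are induced by interferon and sit on cores of the cytosol, and both rose. PSME1 had 123, 113 and 112 CPM with DMSO and 175, 182 and 191 CPM with AZD4573. It was 1.58-fold higher, and its log2 fold change of 0.66 (SE 0.0495, adjusted p = 4.2e-08, edgeR) was the highest of all proteasome genes tested, although it was -0.08 under the mitochondrial scaling. PSME1 (ENSG00000092010) lies on the plus strand of chromosome 14 from 24136163 to 24138967. PSME2 had 96.5, 93.4 and 92.7 CPM with DMSO and 112, 111 and 120 CPM with AZD4573, a log2 fold change of 0.28 (SE 0.0454, adjusted p = 6.9e-05, edgeR). PSME3 encodes PA28 gamma, the nuclear form, and PSME4 encodes PA200, a nuclear cap linked to the degradation of histones. PSME3 had 335, 334 and 330 CPM with DMSO and 223, 213 and 208 CPM with AZD4573, and it was 1.55-fold lower (log2 fold change -0.63, SE 0.0405, adjusted p = 8.9e-09, edgeR). PSME4 had 81.1, 82.2 and 86.1 CPM with DMSO and 53.1, 49.7 and 52.1 CPM with AZD4573, and it was 1.61-fold lower (log2 fold change -0.69, SE 0.0482, adjusted p = 2.2e-08, edgeR). For all 4 caps, no AZD4573 library lay within the range of the DMSO libraries. PSMF1, which encodes the core inhibitor PI31, had a log2 fold change of 0.02 and did not pass.

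**Figure D5:**
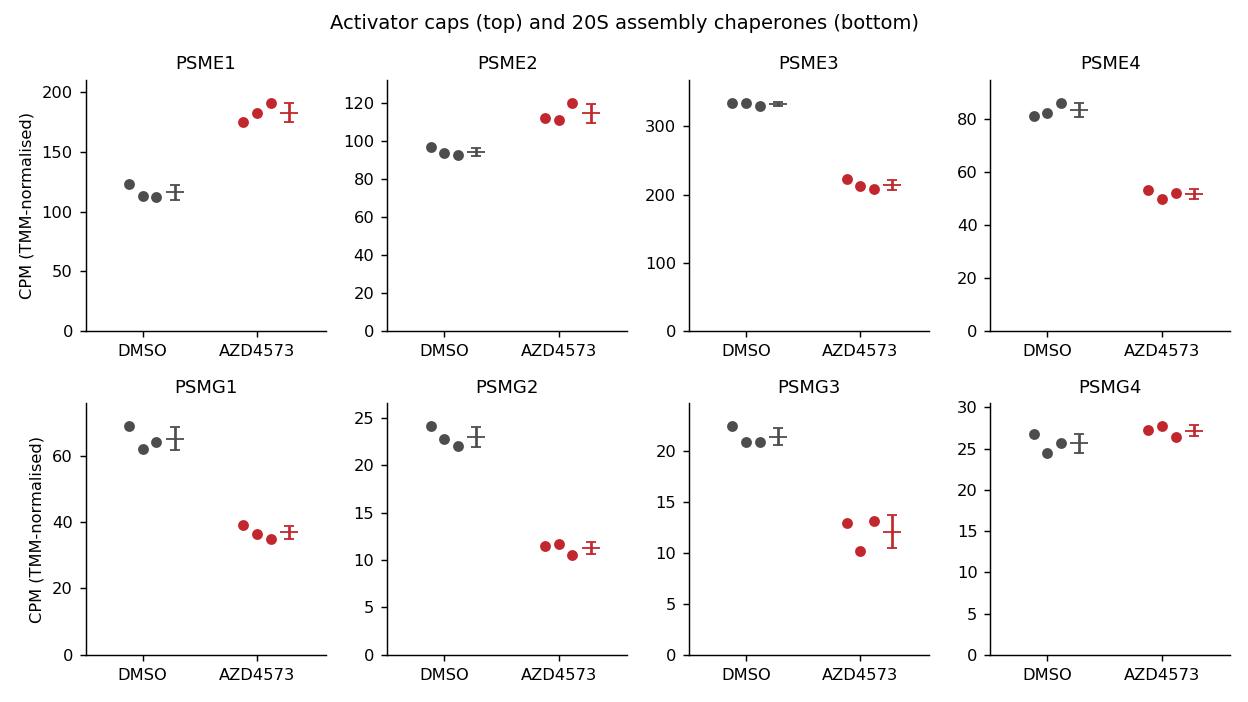
CPM (TMM-normalised, y axis from 0) in each library for the activator caps in the top row and the 20S assembly chaperones in the bottom row, with the mean and SD over 3 libraries beside the points. PSME1 and PSME2 are higher with AZD4573, PSME3, PSME4, PSMG1, PSMG2 and PSMG3 are lower, and the groups of PSMG4 overlap.

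Transcripts of the assembly chaperones of the core mostly fell. Of the 4 chaperones that build the alpha ring of the core, 3 fell and 1 did not pass, with a median log2 fold change of -0.82. The share called lower was 75%, beside 37.4% of all genes. PSMG1 and PSMG2 form a pair, and so do PSMG3 and PSMG4. PSMG2 had 24.1, 22.8 and 22 CPM with DMSO and 11.5, 11.7 and 10.5 CPM with AZD4573, so that it was 2.05-fold lower (log2 fold change -1.03, SE 0.0701, adjusted p = 1.5e-08, edgeR). Its partner PSMG1 had 68.8, 62 and 64.2 CPM with DMSO and 39.1, 36.5 and 35 CPM with AZD4573, and was 1.76-fold lower (log2 fold change -0.82, SE 0.058, adjusted p = 2.4e-08, edgeR). Within this pair the groups lay far apart for both genes. PSMG3 had 22.4, 20.9 and 20.9 CPM with DMSO and 12.9, 10.2 and 13.1 CPM with AZD4573, and was 1.78-fold lower (log2 fold change -0.83, SE 0.089, adjusted p = 1.5e-06, edgeR). Its partner PSMG4 had 26.8, 24.5 and 25.7 CPM with DMSO and 27.3, 27.7 and 26.4 CPM with AZD4573, which overlapped, and a log2 fold change of 0.08 that did not pass (adjusted p = 0.224, edgeR). The test of the difference between partners was not run. Of the 3 chaperones of the 19S base that the name rule takes, PSMD9 fell by 0.26 on the log2 scale, while PSMD5 (0.37) and PSMD10 (0.18) rose, the latter with no call without DMSO replicate 2 (0.15) or 3 (0.13). PAAF1, a chaperone counted below with the genes of other names, was lower (log2 fold change -0.19, adjusted p = 0.00519, edgeR). PSMC3IP, the gene taken by its name alone, had a log2 fold change of -0.13 (adjusted p = 0.0477, edgeR).

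Proteasome proteins whose genes carry other names were counted from a list of 11, of which 7 fell, 2 rose and 2 did not pass. Called shares in this list were 63.6% lower and 18.2% higher, beside 37.4% and 37.3% of all genes. UBE3C, a ubiquitin ligase bound to the proteasome, fell most, from 216, 222 and 218 CPM with DMSO to 118, 93.9 and 88.3 CPM with AZD4573 (log2 fold change -1.13, SE 0.082, adjusted p = 3.0e-08, edgeR). AKIRIN2, which carries proteasomes into the nucleus, fell by 0.99 on the log2 scale, and ECPAS, a scaffold of the proteasome, fell by 0.92. POMP, the maturation factor that joins partly built cores, rose instead, from 79.4, 72.9 and 74.4 CPM with DMSO to 89.1, 84.3 and 89.4 CPM with AZD4573 (log2 fold change 0.21, SE 0.0488, adjusted p = 0.00141, edgeR). The subunit SEM1 also rose (0.21), whereas USP14 (-0.06) and UCHL5 (0.01), the deubiquitinases of the cap, did not pass. The list had a median log2 fold change of -0.19, beside 0.03 for all genes.

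Of the 9 shuttling factors and p97 partners tested, 6 fell and 2 rose, and the median log2 fold change was -0.22. As shares, 66.7% were lower and 22.2% higher, beside 37.4% and 37.3% of all genes. UBQLN2 fell by 0.95 and RAD23B by 0.62 on the log2 scale. VCP, the p97 ATPase itself, fell by 0.43, and DDI1 had 0 counts in every library. Of 6 genes of ubiquitin and its activating enzymes, 4 rose, 1 fell and 1 did not pass. Here 66.7% were higher and 16.7% lower, beside the same 37.3% and 37.4%. The fusion gene RPS27A, which joins ubiquitin to a ribosomal protein, rose by 0.64 (SE 0.0564, adjusted p = 2.0e-07, edgeR).

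NFE2L1 encodes NRF1, the factor that induces proteasome genes when the proteasome is impaired. It had 289, 285 and 285 CPM with DMSO and 418, 473 and 463 CPM with AZD4573, a log2 fold change of 0.66 (SE 0.0481, adjusted p = 3.4e-08, edgeR) that turned to -0.09 under the mitochondrial scaling. In the list of NRF1 and its partners, 4 of 7 genes rose and 3 fell, or 57.1% and 42.9%, beside 37.3% and 37.4% of all genes. MAFG, a small MAF protein with which NRF1 binds DNA, rose most, by 1.57 (SE 0.0559, adjusted p = 6.5e-11, edgeR), and MAFF, of the same family, fell by 1.53 on the log2 scale (SE 0.132, adjusted p = 1.7e-07, edgeR). MAFG and NFE2L2 kept a positive log2 fold change under the mitochondrial scaling, at 0.83 and 0.29. NGLY1 and DDI2, which process NRF1 to activate it, fell by 0.72 and 0.71 on the log2 scale.

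Of 12 genes of MHC class I antigen processing and its activators, 8 rose and 4 fell, with a median log2 fold change of 0.37. These are 66.7% higher and 33.3% lower, beside 37.3% and 37.4% of all genes. Among the genes that rose were B2M (0.68), a chain of the presented molecule, TAP2 (0.13), a subunit of the peptide transporter, and ERAP2. ERAP2, an aminopeptidase that trims peptides, had 22, 20.8 and 20.8 CPM with DMSO and 35, 39.5 and 38.2 CPM with AZD4573 (log2 fold change 0.82, SE 0.0611, adjusted p = 3.7e-08, edgeR). Among the genes that fell were the transcriptional activators IRF1 and NLRC5 and TAP1, the partner of TAP2. IRF1 fell by 0.42 and NLRC5 by 0.37 on the log2 scale. TAP1, which stands beside PSMB9 in the MHC region of chromosome 6, fell by 0.24 on the log2 scale (SE 0.0399, adjusted p = 9.6e-05, edgeR), whereas PSMB9 rose.

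Promoter windows were found for 42 of the 48 genes. The GC box GGGCGG stood in 69% of them, beside 48.3% of 27305 genes with such windows, and CCAAT in 47.6% beside 39.7%. Those 27305 genes were not limited to the 17678 tested here, so their shares are not shares among expressed genes. TGACNNNGC, the core of the element that NRF1 binds, stood in 35.7% of the genes beside 16.1%, and CCGGAAG in 35.7% beside 12.2%. The 15 tested genes with TGACNNNGC had a median log2 fold change of 0.14 and the 25 without it 0.08. For the other 3 of these motifs the genes with a match had the lower median, at 0.04 against 0.12 for CCAAT, 0.06 against 0.11 for GGGCGG and 0.03 against 0.13 for CCGGAAG. The interferon-stimulated response element stood in 16.7% beside 4.38% of the 27305 genes, namely in PSMA4, PSMB4, PSMB8, PSMB10, PSME1, PSME2 and PSMG4. These 7 genes had a median log2 fold change of 0.26, and the 33 others tested that have a window 0.02. The 7 values were PSME1 0.66, PSMB4 0.31, PSME2 0.28, PSMB8 0.26, PSMB10 0.12, PSMG4 0.08 and PSMA4 0.04. PSMA7 (0.48), PSMB1 (0.38), PSMB6 (0.19), PSMB7 (0.12), PSMD4 (0.12) and PSMG3 (-0.83) had no window and enter none of these medians. As a description across genes, which are no independent replicates and share the same 6 libraries, the Spearman correlation of the log2 fold change with the length of the mRNA was -0.36 over the 46 proteasome genes and -0.09 over 13008 genes, and with the mean CPM with DMSO it was 0.27 and -0.19.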

How the data were processed

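RNA-seq of H9 cells covered 3 DMSO and 3 AZD4573 libraries, grouped by their labels. Per the submitters' processing notes and methods, the authors used Cutadapt 2.3 for trimming, STAR 2.7.8a for alignment to GRCh38 and RSEM 1.3.3 for expected counts, with default settings that ignore strand. The deposited expected counts were already whole numbers and were not normalized. The labels describe poly(A) selection and the supplemental methods depletion of rRNA, and these sources were not reconciled. Library totals ran from 52101868 to 76571157 counts. A count of 0 allows up to 0.0392 to 0.0576 CPM (3 counts of the total), which covers counting error only.

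The table also held 5 entries that are no gene, with 0 counts in all, which were left out. Genes were filtered by edgeR (4.0.16, R 4.3.3, minimum count 10), which left 17678, normalized by TMM and compared with edgeR's quasi-likelihood test without a replicate block, with Benjamini-Hochberg adjustment over all of them. CPM are TMM-normalised, errors are SD over libraries, and standard errors come from the test's F statistic. Alternatives were RLE, library-size and mitochondrial scaling, other filters, each library left out, a replicate block, DESeq2 1.42.0, a fold of 2, and counts summed with same-named pseudogenes. Positions and exons came from GENCODE release 44. The procedure was also run on simulated data in which few genes changed, as many up as down. That simulation does not test how the scaling acts where most genes change. No library was a copy of another: within groups the chi-square of counts, divided by its degrees of freedom, was 5.51 to 20.5.

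The genes, lists and alternatives were chosen with earlier results of these data known. The genes named with full statistics were the catalytic subunits, the activator caps, in each other role the genes with the lowest and the highest log2 fold change at an adjusted p under 0.05, and NFE2L1, POMP and TAP1, and the remaining proteasome genes are given by value to account for every one. PSMG1, PSMG3, PSMG4, PSMC5 and others named with values beside these were chosen after their values were seen. Some genes that the rule names are not reported here.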

Additional observations from a re-analysis of the deposited data

Results flagged for a closer look

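Among the names left out by the rule, which entered none of the comparisons of proteasome genes, 3 were higher with AZD4573 than in the control libraries by 1.5-fold or more and with an adjusted p under 0.05 in edgeR. Of all genes tested, 22.7% were higher at the same thresholds. The log2 fold changes of the other left-out names tested did not pass: PSMA3-AS1 (-0.03), PSMB8-AS1 (0.05), PSMC1P1 (-0.21), PSME2P1 (-0.26) and PSME2P2 (0.48). The remaining left-out names had too few counts to be tested. PSMD6-AS2, an antisense transcript at PSMD6, had 27, 15 and 22 counts with DMSO and 509, 612 and 631 with AZD4573, a log2 fold change of 5.18 (SE 0.156, adjusted p = 2.3e-11, edgeR), and it was 4.44 under the mitochondrial scaling. PSMD6 itself had 111, 111 and 111 CPM with DMSO and 114, 117 and 111 CPM with AZD4573. PSMG3-AS1 had 104, 107 and 84 counts with DMSO and 164, 162 and 152 with AZD4573, a log2 fold change of 1.12 (SE 0.168, adjusted p = 4.0e-05, edgeR), at 1.31 ± 0.161 and 2.85 ± 0.366 CPM (SD, n = 3), and 0.38 under the mitochondrial scaling, where it did not pass, while PSMG3 was lower. Where exons of an antisense transcript and its partner overlap, unstranded counts do not tell them apart. PSME3IP1, which encodes a protein that binds PA28 gamma, had 42.8, 41.2 and 42.1 CPM with DMSO and 64.7, 67.6 and 69.7 CPM with AZD4573, a log2 fold change of 0.68 (SE 0.0488, adjusted p = 2.7e-08, edgeR) that became -0.06 under the mitochondrial scaling, while PSME3 was lower.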

How the results depend on the processing

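Scaling changed the counts most. Scaled to the mitochondrially encoded mRNAs, 45 proteasome genes were lower and 0 higher (28 and 0 at a fold change of at least 1.5), and the median log2 fold change was -0.63 for all proteasome genes, -0.55 for the constitutive core, -0.48 for the immunoproteasome subunits, -0.70 for the 19S cap, -0.91 for the activator caps, -1.0 for the assembly chaperones and -0.71 for all genes. There 11878 of all genes were lower and 2144 higher (9433 and 1769 at that fold). With library size as the only scaling, 13 proteasome genes were higher and 0 at that fold, and the same medians were 0.01, 0.08, 0.15, -0.06, -0.28, -0.37 and -0.08. A fold of at least 2 left 2 lower and 0 higher. Without a filter the median of all genes was 0.11. With each library left out in turn, the higher genes numbered 15 to 25 and the median of all genes 0.02 to 0.04. Shares of all genes called are given only for the main fit and the mitochondrial scaling. The counts at the other settings, here and below, therefore do not show a difference from all genes.

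In the lists of other genes, the mitochondrial scaling gave 11 lower and 0 higher proteasome proteins with other names, 0 higher shuttling factors, 5 lower and 0 higher ubiquitin genes, 2 higher NRF1 partners, and 9 lower and 0 higher MHC class I genes. With library size only, 0 proteasome proteins with other names were higher and 2 ubiquitin genes lower, and without a filter 2 ubiquitin genes were lower. With a library left out, proteasome proteins with other names that were higher numbered 1 to 2 and lower ubiquitin genes 1 to 2. 

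Among the 46 proteasome genes and the 9 others taken by the naming rule, the log2 fold changes that turned negative under the mitochondrial scaling were those of PSMA1 (-0.37), PSMA2 (-0.53), PSMA4 (-0.70), PSMA5 (-0.74), PSMA6 (-0.46), PSMA7 (-0.26), PSMB1 (-0.36), PSMB2 (-0.55), PSMB3 (-0.59), PSMB4 (-0.43), PSMB6 (-0.55), PSMB7 (-0.62), PSMB8 (-0.48), PSMB9 (-0.35), PSMB10 (-0.62), PSMC4 (-0.57), PSMD2 (-0.63), PSMD3 (-0.56), PSMD4 (-0.62), PSMD5 (-0.38), PSMD6 (-0.70), PSMD7 (-0.62), PSMD8 (-0.63), PSMD10 (-0.56), PSMD12 (-0.39), PSMD13 (-0.36), PSME1 (-0.08), PSME2 (-0.45), PSMF1 (-0.72), PSMG4 (-0.66), POMP (-0.53), RPS27A (-0.10) and NFE2L1 (-0.09). Of genes named besides these, SEM1 (-0.53), UCHL5 (-0.73), B2M (-0.06), TAP2 (-0.61) and PSME3IP1 (-0.06) turned too. With library size only, PSMA4 (-0.06), PSMA5 (-0.10), PSMD6 (-0.06), PSMF1 (-0.09) and PSMG4 (-0.02) turned, as did PSMA5 (-0.04) and PSMF1 (-0.03) without a filter and PSMC3 (0.03) with at least 10 counts in every library. With a library left out, PSMA4 (lowest -0.00), PSMA5 (-0.04 to -0.01), PSMF1 (-0.01) and PSMC3 (-0.05 to 0.04) crossed 0, and none of these 4 passed the test with all libraries. The cause of these shifts was not tested. Outside the mitochondrial scaling, 644 of 715 values of single genes kept direction and call, 43 lost the call, 11 gained it and 17 turned.

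The replicate numbers did not pair the libraries, since the correlation of the deviations of same-numbered libraries was -0.0208, 0.0417 and 0.0316. With a replicate block, 13 proteasome genes were lower and 23 higher, and 7 and 1 at a fold change of at least 1.5. Total counts limit transcripts such as PSMA8 and PSMB11, with at most 3 counts in a library.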
